A study of Mus musculus with 2 samples.

Results

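Apolipoprotein E, the receptors that bind it and the pumps that load cholesterol onto it were examined in stimulated mouse B cells transduced with miR-181b, a small RNA that lowers the level or translation of messages it pairs with. The set held 7 genes: Apoe, the receptors Vldlr, Lrp8 and Lrp1, the receptor chaperone Lrpap1 and the exporters Abca1 and Abcg1. Its members were all probes that the array design names for these genes, 10 of 41174 probes on the array. Of these, 9 were measured, meaning well above local background in both RNAs on both arrays, as were 25812 probes and 17579 genes of the whole array.

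Primary B lymphocytes had been purified from C57BL/6 spleens by removing CD43+ cells with magnetic beads. Both cultures, control and miR-181b, received interleukin-4 at 10 ng/ml and lipopolysaccharide at 25 µg/ml, which together make resting B cells divide and switch antibody class. Both were exposed for 20 h to retrovirus with polybrene (8 µg/ml), a polymer that aids infection. The control vector is labelled control-GFP and the other miR181b-GFP, after the green fluorescent protein that marks transduced cells. Fluorescent cells were sorted on day 2 after transduction, by fluorescence and with no cell type marker named for the sort. The series held 1 RNA sample per vector, hybridised together on 2 whole-genome Agilent arrays with the dyes exchanged. The miR-181b RNA was labelled with Cy5 on array 1 and with Cy3 on array 2. As both arrays repeat the same RNA pair, they are technical repeats, no test between vectors could be made and no p-value is given. Every difference below describes these 2 RNA samples.

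Apolipoprotein E is a secreted, lipid-binding protein that coats lipoprotein particles and is the ligand by which cells take them up. It is best known as a product of liver, macrophages and astrocytes. The receptors Vldlr, Lrp8 and Lrp1 belong to a family of lipoprotein receptors that carries ligands from the cell surface to endosomes, and Vldlr and Lrp8 also pass on the signal of the secreted protein reelin. The receptor-associated protein encoded by Lrpap1 holds newly made receptors free of ligand in the endoplasmic reticulum. Abca1 and Abcg1 move cellular cholesterol onto apolipoproteins and onto high-density lipoprotein, and both are known target genes of the oxysterol-sensing liver X receptors.

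The sequences shown are a mature strand of the microRNA and the probes of the genes that differed. The RefSeq table (mouse build GRCm38.p6) places mature miR-181b-5p at chr1:137966650-137966673 and chr2:38853845-38853868, both on the plus strand, within the hairpin genes Mir181b-1 and Mir181b-2. The 2 copies have the same sequence. The labels name miR181b without an arm, so that the 5p arm is shown, and its seed used below, is an assumption. The seed, bases 2 to 8, is in capitals.
mmu-miR-181b-5p: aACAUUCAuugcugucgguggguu
The Apoe probe, designed on the transcript NM_009696, is shown whole at 60 bases, and the Vldlr probes, designed on NM_013703 and AK036010, by their first 30 bases, since the probe values of that gene disagreed.
Apoe, probe A_51_P171999: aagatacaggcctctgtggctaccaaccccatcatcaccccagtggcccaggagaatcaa
Vldlr, probe A_51_P278334: attgtaaactttttcaatggttgggacaat
Vldlr, probe A_51_P500044: ctactgtgacttcaaaactgatctcaagta
The 7-base mRNA match of the seed, TGAATGT, was searched in the probe strand only. It was in 0 of the 10 member probes and in 0.954% of all 41174 probes. Probes are short pieces of a transcript, so the search says nothing of the rest of any mRNA. The build on which the array was designed is not given in the sources used here, so no genome position is given for a probe.

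Of the 7 genes, Vldlr was lower in the miR-181b RNA, Apoe was higher, and Lrp8, Lrp1, Lrpap1, Abca1 and Abcg1 lay within 1.5-fold on both arrays. These genes were chosen by their log2 ratios in this same contrast, so what follows is description. A log2 ratio is miR-181b over control, as the mean of both arrays, and the value after ± says how far each array lay from it. That distance was 0.01 to 0.18 over the 9 measured member probes, with a median of 0.05. Over all measured probes its median was 0.1 and its 95th percentile 0.37. A probe counted as lower or higher when its mean ratio reached 1.5-fold (0.58 on the log2 scale) with the same sign on both arrays. By this rule 1 member probe was lower and 1 was higher, where 0.43% of all measured probes were lower and 0.713% were higher. By a stricter rule, 2-fold on the mean and 1.5-fold on each array, 1 was lower and 0 were higher, against 0.0775% and 0.0155% of all measured probes. Vldlr passed both rules, and Apoe passed the first only. The value just inside the first threshold was that of Apoe (0.64), and the value just outside it was that of the other Vldlr probe (-0.50). Irrespective of size, 3 member probes were lower on both arrays, 3 were higher on both and 3 had opposite signs. Over all measured probes, 26.2% were lower on both arrays, 23.8% were higher on both and 50.0% had opposite signs.

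**Figure D1:**
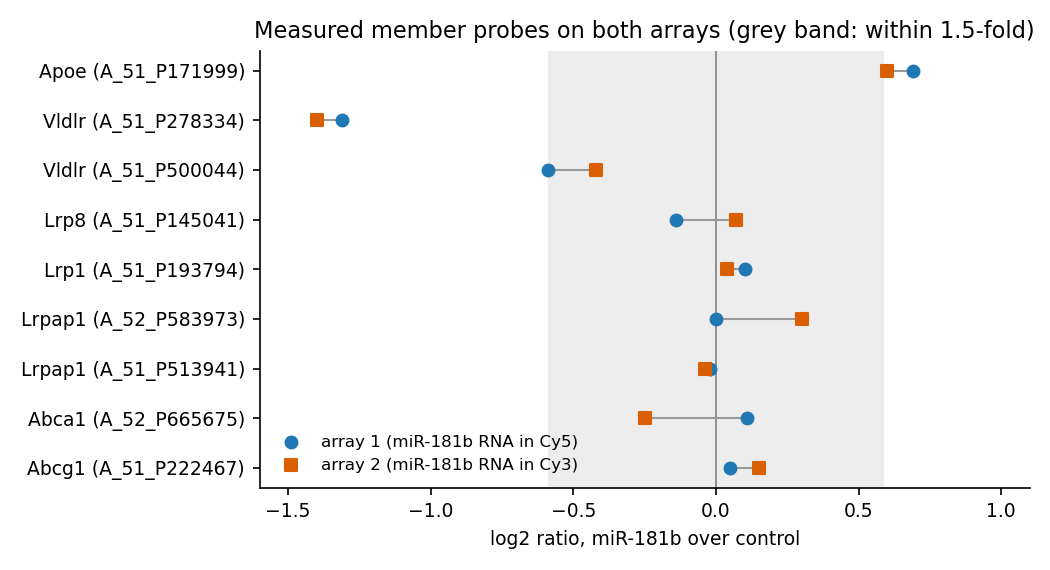
Log2 ratio, miR-181b over control, of the 9 measured probes of the set on array 1 (circles) and array 2 (squares), with a grey band for ratios within 1.5-fold. The brighter Vldlr probe lies left of the band on both arrays (-1.31 and -1.40), Apoe lies at or beyond its right edge (0.69 and 0.60), and 6 probes lie inside it on both arrays.

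Apoe, the ligand of the set, was 1.56-fold higher in the miR-181b RNA. Its normalised log2 intensity was 14.37 on array 1 and 14.35 on array 2 in the miR-181b RNA, and 13.69 and 13.76 in the control RNA. Both miR-181b values lay above both control values. The spread between arrays within an RNA was far smaller than the gap between RNAs. The log2 ratio was 0.69 on array 1 and 0.60 on array 2, with a mean of 0.64 ± 0.04. Apoe ranked 120th from the highest of 17579 measured genes. Before normalisation, the background-subtracted signal of the miR-181b RNA was 29542 in Cy5 and 13676 in Cy3, and that of the control RNA was 9872 in Cy3 and 20268 in Cy5. Within each dye the miR-181b RNA was the brighter. In each RNA Cy5 read higher than Cy3 before normalisation. After normalisation, which takes out the dye trend of each array, the average of Cy5 over Cy3 on both arrays was 0.04 on the log2 scale.

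The Apoe probe was printed at 10 spots on each array, which gives its ratio a spread within an array that single-spot probes lack. On array 1 the spots ran from 0.59 through a median of 0.67 to 0.76 (SD 0.059). On array 2 they ran from 0.53 through 0.61 to 0.62 (SD 0.034). Apoe was higher in the miR-181b RNA at 10 of 10 spots on each array, and by at least 1.5-fold at 10 spots on array 1 and 8 on array 2. The spots share the RNA, the labelling and the array, and so measure printing and hybridisation error only.

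The Apoe value depended on the normalisation and its intensity class held more higher calls than any other. With each array centred on its median and no loess curve for the dye trend, the log2 ratio was 0.59 on array 1 and -0.13 on array 2. The mean was then 0.23, short of 1.5-fold and with opposite signs. The median of all measured probes was -0.18 under that setting, and Apoe lay 0.41 above it. With the measured probes split by brightness into 10 classes of like size, Apoe was in the brightest, where 92 of 2581 probes (3.56%) were higher by the 1.5-fold rule. In that class 53.4% of probes had opposite signs on the arrays and 511 were saturated at a spot, but the Apoe probe was saturated in no channel. The part of dye trend and brightness in the Apoe value was not tested beyond these settings.

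**Figure D2:**
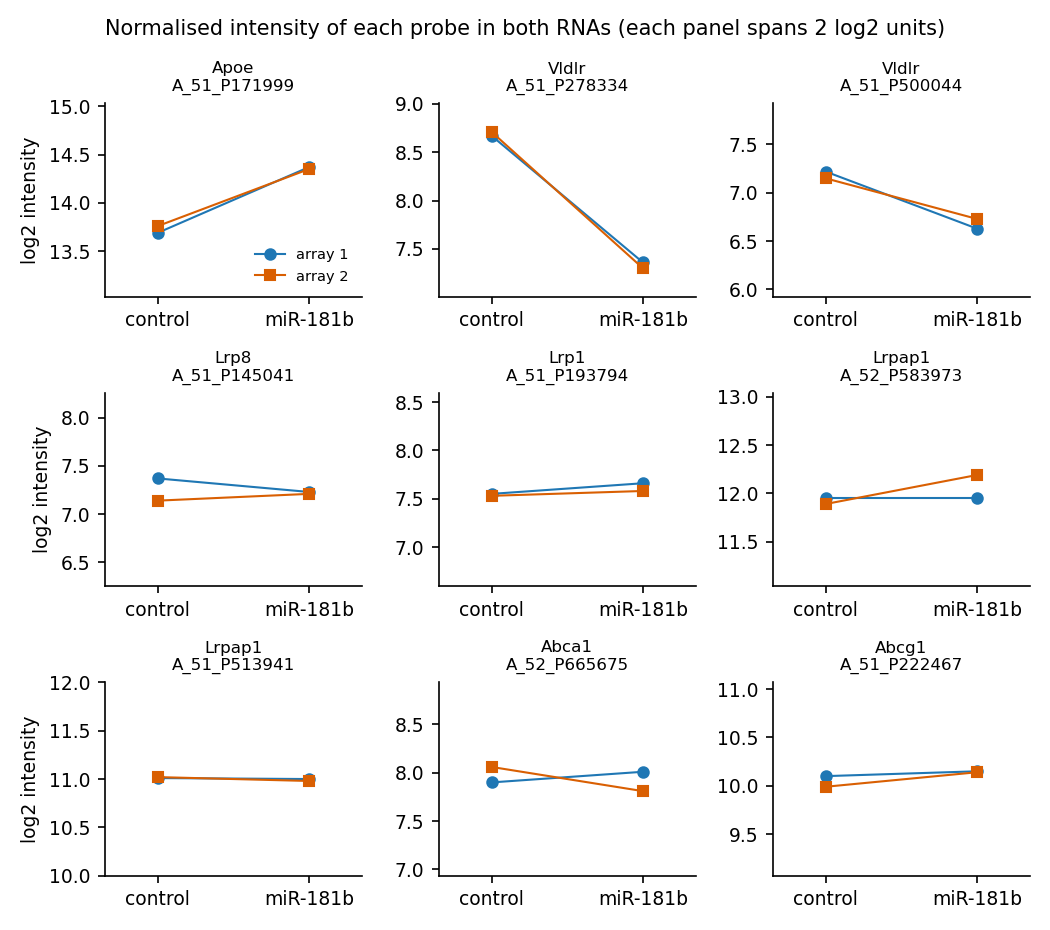
Normalised log2 intensity of each measured probe in the control and the miR-181b RNA on array 1 (circles) and array 2 (squares), with a line joining the RNAs of an array and every panel spanning 2 log2 units. Both lines slope up for Apoe and down for both Vldlr probes. In the other panels they cross, run flat or, for Lrp8, converge, except Abcg1 and Lrp1, whose slopes are slight.

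Macrophages are a known source of Apoe, and their markers were set beside it. Of 20 macrophage and monocyte markers, 11 were measured, and 9 were not well above background, among them the defining markers C1qa, C1qc, Mrc1, Cd163 and Trem2. The summed intensity of the measured markers was 5345 and 5143 in the miR-181b RNA and 5083 and 5195 in the control RNA on arrays 1 and 2. The log2 ratio of the sums was 0.07 and -0.01, and 0 of 11 markers passed 1.5-fold. The brightest markers in the control RNA were Adgre1, the F4/80 antigen, at -0.02 ± 0.17, and Cd68, a lysosomal protein, at 0.26 ± 0.28. Single markers went both ways, with 3 lower and 2 higher on both arrays. Lyz2, a lysozyme, was at -0.49 ± 0.07. Csf1r, the receptor for a macrophage growth factor, was at -0.26 ± 0.05 by its brightest probe but at 0.19 and 0.13 by its others. The integrin Itgam was at 0.27 ± 0.10, and at 0.05 by its other probe. These 3 markers were named after their values were seen. In bulk RNA, fewer cells of a type and less RNA per cell cannot be told apart.

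Markers of other cell types were described in the same way. The granulocyte and mast cell markers summed to 18874 and 20387 in the miR-181b RNA and to 12579 and 13196 in the control RNA, with log2 ratios of 0.59 and 0.63. Without Prg2, the eosinophil granule protein, the ratios were -0.06 and -0.07. Prg2 was at 0.70 ± 0.02 and its relative Prg3 at -0.05 ± 0.01, and of the 10 such markers on the array S100a8, Elane, Cpa3 and Mcpt8 were not well above background. Natural killer markers summed to log2 ratios of 0.27 and 0.44 over 5 measured of 8, with the cytokine receptor Il2rb at 0.45 ± 0.10 and perforin, Prf1, at 0.34 ± 0.13. Without Il2rb the ratios were 0.14 and 0.25, and of the other markers, named after their values were seen, Klrd1 was at 0.12 ± 0.03 and Nkg7 at -0.04 ± 0.03, with Klrb1c below 0.01 in size. T cell markers summed to -0.09 and -0.21 over 9 measured, with Lck at -0.19 ± 0.06 and Cd5 at -0.23 ± 0.06. Of the 9, 4 were higher and 3 lower on both arrays, and without Lck the sums were at 0.00 and -0.12. The CD3 chains of the T cell receptor complex, also named after their values were seen, went both ways. Cd3e (0.25 ± 0.12) and Cd3g (0.23 ± 0.09) were among the higher, and Cd3d (-0.07 ± 0.05) was among the lower. Dendritic markers summed to -0.08 and 0.12, with Bst2 at 0.03 ± 0.02 and Ccr7 at 0.07 ± 0.35. Without Bst2 the sums were at -0.30 and 0.30. Of the 7 measured, 3 were higher and 2 lower on both arrays. Xcr1 (0.30 ± 0.03) was among the higher and Batf3 (-0.46 ± 0.10) among the lower, both named after their values were seen. The erythroid and megakaryocyte list had 2 measured markers of 7, Hba-a1 at 0.39 ± 0.02 and Gp1bb at 0.22 ± 0.08. Stromal and endothelial markers summed to -0.08 and 0.41 over 6 measured of 9, with Pecam1 at 0.24 ± 0.45 and Col3a1 at 0.34 ± 0.15. Without Pecam1 the sums were at 0.06 and 0.11. The list median was -0.01. The remaining markers, named after their values were seen, were Pdgfrb at -0.13 ± 0.10 and Col1a2, Kdr and Lum, each at -0.01. Other probes were at 0.24 for Hba-a1 and at 0.04 for Col3a1. All 10 B cell markers were measured. Their medians were -0.27 on array 1 and 0.70 on array 2, and 8 of the 10 had opposite signs. Cd79b and Ms4a1 were saturated. Unsaturated markers, named after their values were seen, also differed between arrays, such as Cd22 (-0.47 and 0.74) and Blk (-0.33 and 0.91). By the 1.5-fold rule 1 of the 10 was higher, Cd79a (0.16 and 1.56), where 0.819% of all measured genes were. The part of these cell types in the Apoe value was not tested.

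Vldlr, the receptor for triglyceride-rich lipoproteins and for reelin, was 2.56-fold lower in the miR-181b RNA by its brighter probe. The log2 intensity was 7.36 and 7.30 in the miR-181b RNA on arrays 1 and 2, and 8.67 and 8.71 in the control RNA. The ranges of the RNAs did not overlap and each RNA differed by less than 0.1 between arrays. The log2 ratio was -1.31 on array 1 and -1.40 on array 2, with a mean of -1.36 ± 0.05, or 2.48-fold and 2.64-fold lower. Vldlr was the 8th lowest of 17579 measured genes. Its background-subtracted signal was 125 in Cy5 and 71.1 in Cy3 for the miR-181b RNA, and 268 in Cy3 and 442 in Cy5 for the control RNA. The control signal was the higher within each dye, and both signals were dim. The probe lay in class 4 of 10 from the dimmest, where 0.426% of probes were lower by the 1.5-fold rule.

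A second probe, designed on another Vldlr transcript, was lower on both arrays by less. Its log2 intensity was 6.63 and 6.73 in the miR-181b RNA and 7.22 and 7.15 in the control RNA, again without overlap. The log2 ratio was -0.59 and -0.42, with a mean of -0.50 ± 0.08, which is 1.42-fold lower and short of the threshold. It ranked 170th from the lowest of 25812 probes, in class 2 of 10 from the dimmest, where 0.0387% of probes were lower by the 1.5-fold rule. Its background-subtracted signals, 39.5 and 36.3 in the miR-181b RNA and 71.2 and 91.8 in the control RNA, were of the same order as the offset of 50 that is added before the logarithm, which draws the ratios of dim probes towards 0.

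The Vldlr probes differed from each other by -0.72 on array 1 and -0.99 on array 2, with a mean of -0.86. Of 3942 genes with 2 measured probes, 0.228% had probes at least that far apart, and the median distance was 0.10. Other settings gave both probes larger ratios. With an offset of 10 the brighter probe was at -1.65 (3.14-fold lower) and the dimmer at -0.77 (1.7-fold lower). By the scanner's own log ratio they were at -1.97 (3.92-fold lower) and -1.51 (2.85-fold lower). Under these settings both probes were lower by the 1.5-fold rule, and both arrays gave each probe a negative sign. The mean of both probes under the main setting was -0.93. The transcripts detected by each probe were not told apart here.

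**Figure D3:**
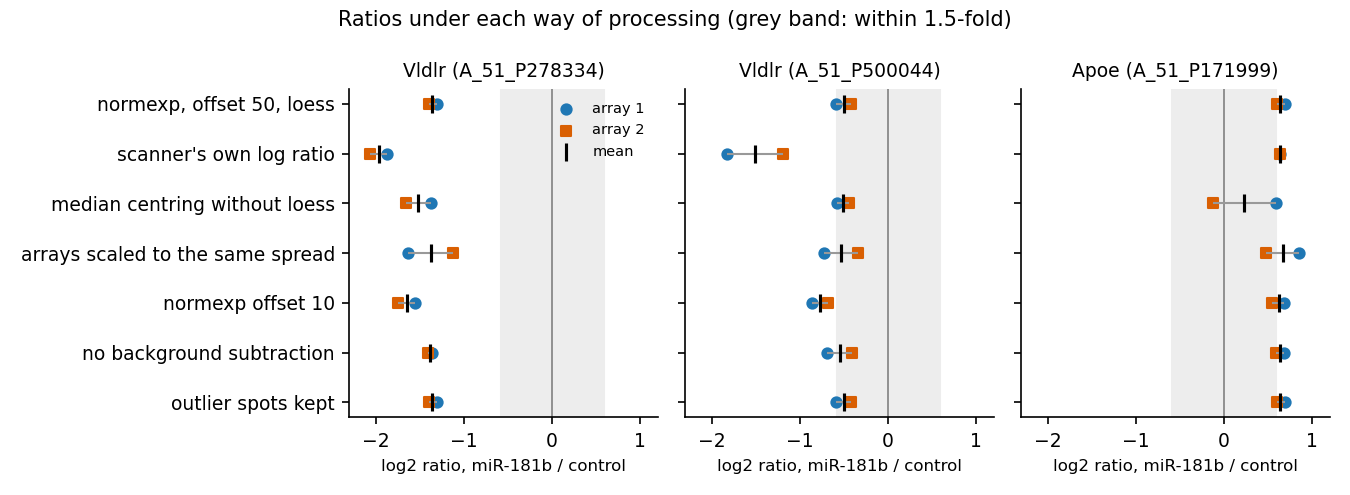
Log2 ratio, miR-181b over control, of both Vldlr probes and the Apoe probe under 7 ways of processing, on array 1 (circles), array 2 (squares) and as their mean (black bars), with a grey band for ratios within 1.5-fold. The brighter Vldlr probe lies outside the band under all 7, the dimmer one leaves it with an offset of 10 (-0.77) and by the scanner's log ratio (-1.51), and Apoe falls inside it when the loess step is left out (0.23).

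Lrp8, also called the apolipoprotein E receptor 2 and the other reelin receptor of the set, differed little. Its log2 intensity was 7.23 and 7.21 in the miR-181b RNA and 7.37 and 7.14 in the control RNA. The control values enclosed the miR-181b values. The log2 ratio was -0.14 on array 1 and 0.07 on array 2, with a mean of -0.04 ± 0.10, smaller than the distance between the arrays. Like Vldlr it was dim, with background-subtracted signals between 66.9 and 114.

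Lrp1, a large endocytic receptor for Apoe-bearing remnants and for protease complexes, was at 0.10 on array 1 and 0.04 on array 2, with a mean of 0.07 ± 0.03. Its log2 intensity was 7.66 and 7.58 in the miR-181b RNA and 7.55 and 7.53 in the control RNA. Both miR-181b values were above both control values, but the mean ratio was smaller than the median distance of an array from its mean over all probes, 0.1. A second Lrp1 probe was not well above background in either RNA on either array, and no ratio is given for it.

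Lrpap1, the chaperone of these receptors, had 2 probes on the same transcript. The brighter was at a ratio below 0.01 in size on array 1 and at 0.30 on array 2, with a mean of 0.15 ± 0.15. Its log2 intensity was 11.95 and 12.19 in the miR-181b RNA and 11.95 and 11.89 in the control RNA, so a single array carried the difference. The dimmer probe was at -0.02 and -0.04, with a mean of -0.03 ± 0.01, and its intensities lay between 10.98 and 11.02 in both RNAs. The probes differed by 0.17 on average, and 30.4% of genes with 2 measured probes had probes at least that far apart. Neither probe gave a difference beyond the spread between arrays and probes.

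Abca1, which passes cholesterol to lipid-poor apolipoproteins, was at 0.11 on array 1 and -0.25 on array 2, with a mean of -0.07 ± 0.18. Its log2 intensity was 8.01 and 7.81 in the miR-181b RNA and 7.90 and 8.06 in the control RNA, and the ranges overlapped. Abca1 had the largest distance between arrays of the 9 measured probes. Abcg1, which passes cholesterol to high-density lipoprotein, was at 0.05 and 0.15, with a mean of 0.10 ± 0.05. Its intensity was 10.15 and 10.14 in the miR-181b RNA and 10.10 and 9.99 in the control RNA. The ranges did not overlap, but the ratio was about the median size of a ratio over all measured probes, 0.1. With no loess step the mean ratio of Abcg1 was -0.19, close to the all-probe median of -0.18 under that setting. Both exporters were thus measured, and neither reached 1.5-fold on either array.

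The dye contrast, Cy5 over Cy3 averaged over both arrays after normalisation, is another form of the distance between the arrays. In size it equals the value after ±, so it is no separate technical background. Normalisation had already taken out the dye trend. By the same 1.5-fold rule, 0 of the 9 member probes differed between Cy5 and Cy3, against 1.25% of all measured probes and 0.304% of those never saturated. The dye contrast of the member probes was 0.01 to 0.18 in size, largest for Abca1.

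The genes whose pair of array values lay nearest to that of Vldlr were sought over the 2 arrays by Euclidean distance, in log2 units. In order of distance they were Prelid2, Pgm1, Ndrg1, Pdk1 and P4ha2. Prelid2 was at -1.29 and -1.41, a distance of 0.018. Pgm1, a phosphoglucomutase that links glycogen to glycolysis, was at -1.28 and -1.41, a distance of 0.037. Ndrg1, a stress-induced cytoplasmic protein, was at -1.42 and -1.32, and Pdk1, a kinase that inactivates pyruvate dehydrogenase, was at -1.47 and -1.49. P4ha2, a catalytic subunit of collagen prolyl hydroxylase, was at -1.16 and -1.59, a distance of 0.241. No other lipoprotein receptor of the lists was among these 5 genes.

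Nearest to Apoe were Igkv6-14, Slc7a5, Atcay, Prg2 and Pip5k1c, after 7 clone or predicted names were passed over. Igkv6-14, an immunoglobulin kappa variable segment, was at 0.72 and 0.65, a distance of 0.062, and related segments can share its signal. Slc7a5, an importer of large neutral amino acids, was at 0.59 and 0.67. Atcay, which encodes caytaxin, was at 0.76 and 0.70. Prg2 was at 0.67 and 0.72, and Pip5k1c, a lipid kinase that makes phosphatidylinositol bisphosphate, was at 0.65 and 0.46, a distance of 0.140. Likeness over 2 arrays of the same RNAs places genes at the same ratio and carries no more information than that.

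**Figure D4:**
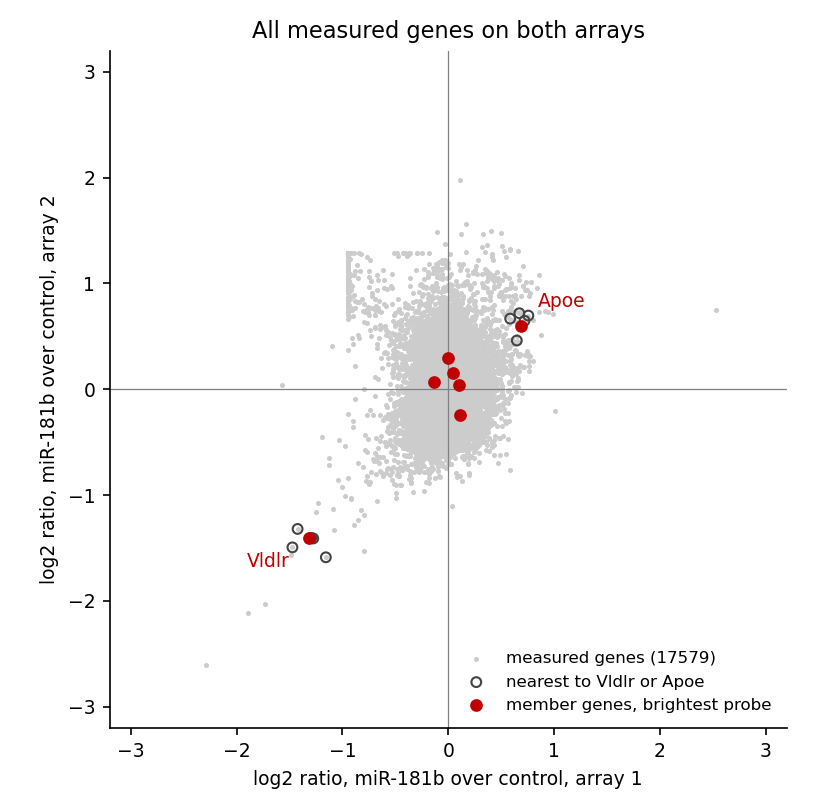
Log2 ratio, miR-181b over control, of 17579 measured genes on array 1 (horizontal) and array 2 (vertical), with the 7 genes of the set by their brightest probe in red and the genes nearest to Vldlr or Apoe ringed. Vldlr lies at the far lower left and Apoe at the upper right of the cloud, and the other 5 genes lie near the centre. The straight edges at the upper left are mostly genes with a saturated spot, and 3 genes lie outside the plotted range.

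The wider pathway was described by 10 gene lists, from which the 7 genes were left out. A gene stood at its brightest measured probe, and some genes are in more than 1 list. Over all 17579 measured genes, 0.512% were lower and 0.819% were higher by the 1.5-fold rule. Irrespective of size, 27.4% were lower on both arrays, 24.4% were higher on both and 48.2% had opposite signs. The median ratio of all genes was -0.01.

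The other receptors of the same family, with their regulators, had 13 measured genes of 18. Of these, 0 passed 1.5-fold in either direction, 4 were lower on both arrays, 1 was higher on both, and the list median was 0.05. Mylip, a ubiquitin ligase that sends Vldlr and Lrp8 to degradation, was at -0.17 ± 0.04 by one probe and 0.14 by the other. Lrp5, a Wnt coreceptor, was at -0.10 ± 0.06, and Snx17, a sorting nexin that returns Lrp1 to the cell surface, was at 0.28 ± 0.17. The lowest of the 13 was at -0.47, and the Vldlr probes were at -1.36 and -0.50. As Vldlr was chosen by its ratio in this contrast, its place below them is description only.

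Reelin signalling through Lrp8 and Vldlr had 16 measured genes of 18. Of these, 0 passed 1.5-fold, 14 had opposite signs on the arrays, and the median was 0.03. The genes with like signs were the kinase Akt1, at 0.23 on both arrays, and Pik3r1, a regulatory subunit of phosphoinositide 3-kinase, at -0.15 ± 0.06. Other probes were at 0.24 for Akt1 and at 0.06, 0.03 and -0.10 for Pik3r1. The ligands, adaptors and sheddases of Lrp1 had 17 measured genes of 21, of which 0 were lower and 1 was higher by the rule. That gene was Calr, the chaperone calreticulin, at 0.27 on array 1 and 0.92 on array 2, with a mean of 0.60 ± 0.33 and 0.83 at its other probe. By the scanner's log ratio, without loess or with the arrays scaled to the same spread it did not pass. Of the 17 genes 9 were higher on both arrays, among them the adaptor Shc1 (0.41 ± 0.32), the sheddase Adam10 (0.31 ± 0.25) and the amyloid precursor App (0.30 ± 0.20). In each of these the larger value came from array 2. The list medians were 0.07 on array 1 and 0.18 on array 2.

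The other apolipoproteins had 10 measured genes of 16, of which 0 passed 1.5-fold and 5 were lower on both arrays, with a median of -0.06. Of the named genes, Apool, a protein of the mitochondrial inner membrane, was at -0.22 ± 0.17, and at -0.25, 0.05 and -0.15 by its other probes. Apoa4 was at -0.15 ± 0.08, Apoa2 at -0.14 ± 0.01 and Apon at -0.09 on both arrays to within 0.01. The highest gene of the list was at 0.13, below the value of Apoe (0.64), which was chosen by its ratio in this contrast. The enzymes that modify lipoproteins had 10 measured genes of 14, of which 6 were higher on both arrays and 0 passed 1.5-fold, with a median of 0.11. Pltp, the phospholipid transfer protein, was at 0.02 on array 1 and 0.64 on array 2. Lmf2 (0.22 ± 0.16), Sdc4, a heparan sulphate proteoglycan (0.21 ± 0.20), and hepatic lipase, Lipc (0.20 ± 0.15), also had their larger value on array 2. The other Sdc4 probe was at 0.05. The scavenger receptors had 7 measured genes of 10, of which 0 passed 1.5-fold and 6 had opposite signs. Cd36, which takes up oxidised lipoprotein and fatty acids, was at 0.24 ± 0.08 and its other probe at 0.47.

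The liver X receptors, their partners and target genes had 21 measured genes of 24. Of these, 0 passed 1.5-fold, 8 were lower on both arrays and 4 were higher, with a median of 0.02. The receptor Nr1h2 was at 0.30 ± 0.21. The lipogenic targets Scd2, a fatty acid desaturase, and Fasn, the fatty acid synthase, were at -0.45 ± 0.08 and -0.21 ± 0.15. Without loess both passed the 1.5-fold rule as lower, as did 908 of all 17579 measured genes under that setting. The other Fasn probe was at -0.06 in the main setting. The other ABCA and ABCG transporters had 11 measured genes of 20, of which 9 had opposite signs and 0 passed 1.5-fold, with a median of 0.02. Abca7, a close relative of Abca1, was at -0.23 ± 0.03, and Abca17 at -0.13 ± 0.02. Abca7 passed as lower without loess.

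The targets of SREBP2, the transcription factor that raises cholesterol synthesis and uptake when sterols are scarce, had all 25 genes measured. Of these, 3 were lower and 0 higher by the rule, 18 were lower on both arrays and 1 was higher, and the median was -0.31. The genes that passed were Stard4, a sterol carrier (-0.50 and -1.03, with other probes at -0.55 and -0.56), Msmo1, a sterol demethylase (-0.67 ± 0.09), and Hmgcs1, the synthase before the rate-limiting step of sterol synthesis (-0.66 ± 0.09, with other probes at -0.48 and -0.19). Hsd17b7, a later enzyme, was at -0.57 ± 0.03. Without loess 17 of the 25 passed as lower and the median was -0.69. Of all 17579 measured genes, 908 passed as lower under that setting, and their median was -0.20 over all genes. Genes of cholesterol storage and transport inside the cell were all measured, 20 of 20, and 0 passed 1.5-fold. Of these, 8 were higher on both arrays and 3 lower, with a median of 0.09. The sterol carrier Stard5 was at 0.33 ± 0.06, Lamp2, a lysosomal membrane protein, at 0.27 ± 0.20, and Abcd4, a lysosomal transporter of vitamin B12, at -0.21 ± 0.14. Other probes were at 0.42 for Stard5 and at 0.02 and -0.03 for Lamp2. Gramd1a, which moves cholesterol from the plasma membrane, was at -0.31 on array 1 and -0.30 on array 2 and passed as lower without loess.

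**Figure D5:**
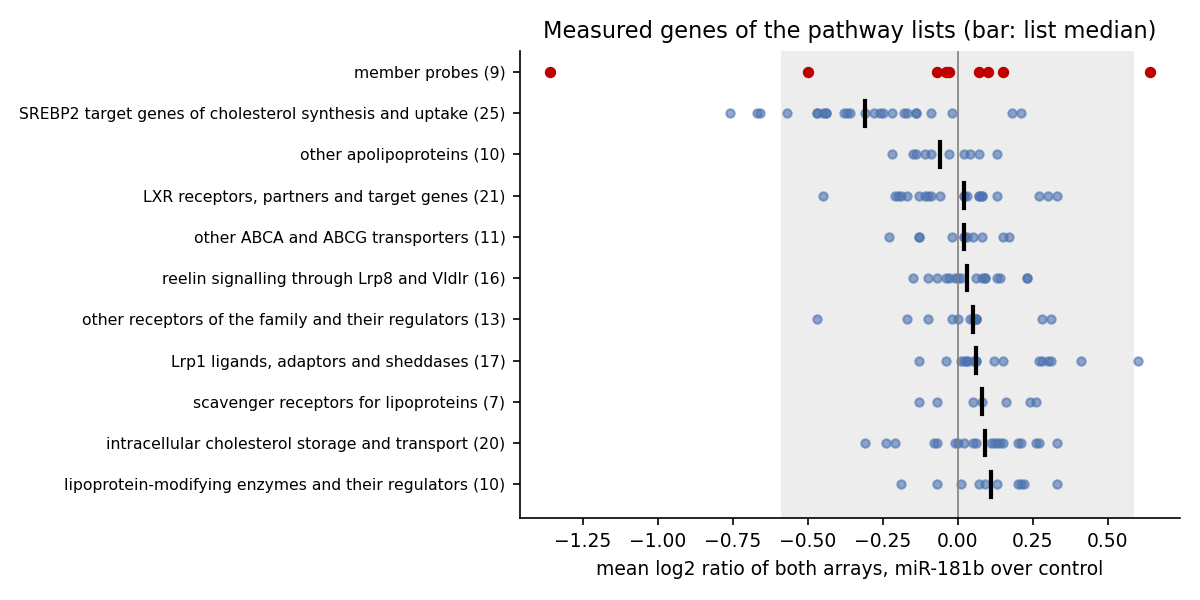
Mean log2 ratio of both arrays, miR-181b over control, for the 9 measured member probes (red) and for each measured gene of the 10 pathway lists (blue), with the list median as a black bar, the number of points in brackets and a grey band for ratios within 1.5-fold. The SREBP2 targets have the lowest list median (-0.31). With each list gene at its brightest probe, the brighter Vldlr probe (-1.36) lies below every one and Apoe (0.64) above every one. Calr (0.60) is nearest to Apoe, and its other probe, not plotted, was at 0.83. Vldlr and Apoe were chosen by their ratios in this contrast.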

How the data were processed

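RNA of 1 culture per vector (integrity numbers 9.7 to 9.8, 2 µg labelled, per the labels' protocols) was measured on 2 dye-swapped arrays. The deposited scanner files were written by Feature Extraction 9.1.3.1 (Agilent), per the file headers. Per the file headers, the intensities are the mean signal and the local median background of each spot, uncorrected, and a processed signal after background subtraction and dye normalisation. The log10 ratio is Cy5 over Cy3 of processed signals, per the file headers. A table of log2 ratios was deposited by the authors too. At 200 of 200 single-spot probes tried, its values equalled those of the processed signals to within 2e-05, turned to miR-181b over control and with constants of 0.00109 and 0.0327 added. Its column medians were -0.0626 and -0.0704. Its row identifiers matched no probe column, so no row was named or used.

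Analysis used limma 3.58.1 in R 4.3.3, with normexp background correction with an offset of 50 and loess within each array with control spots at weight 0. Outlier spots (7 and 21) were left out, saturated spots were kept and spots of a probe were averaged. The array 2 ratio was turned to miR-181b over control. Single-channel intensities came from loess and Aquantile normalisation. The brightest measured probe stood for a gene. For the lists, gene names were updated from RefSeq (GRCm38.p6). The transcript accession gave the name of 22951 probes, the symbol that of 6659 and a synonym that of 3109, while 8455 kept their name in the file. A channel had 64.7% to 67.7% of spots well above background. Saturated spots numbered 538 and 562 in Cy5 and 163 and 71 in Cy3 on arrays 1 and 2. Having 2 arrays, of 1 slide and 1 scan, limits the precision.

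The members and lists were chosen with earlier results of these data known. Named genes were all member probes, up to 4 genes per pathway list with the largest ratio of like sign on both arrays, the 5 genes nearest to Vldlr and to Apoe (clone and predicted names passed over), and the 2 brightest markers per list of another cell type. Alternatives were the scanner's log ratio, median centring without loess, scaling between arrays, an offset of 10, no background subtraction, outlier spots kept, saturated probes left out, the mean of a gene's probes, the 2-fold rule and each array alone. The steps were checked on simulated data. A few results that the naming rule covers are left out here.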

Additional observations from a re-analysis of the deposited data

How the results depend on the processing

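The brighter Vldlr probe was lower by the 1.5-fold rule under every alternative run. Its log2 ratio was -1.36 and became -1.52 with median centring, -1.65 with an offset of 10, -1.97 by the scanner's log ratio and -0.93 as the mean of both probes. Apoe was 0.64 and became 0.23 with median centring, with opposite signs on the arrays. Single arrays gave -1.40 to -1.31 for Vldlr and 0.60 to 0.69 for Apoe. The count of lower member probes was 1 and became 2, with the dimmer Vldlr probe, under the offset of 10, under the scanner's log ratio and on array 1 alone (single arrays gave 1 to 2). The count of higher probes was 1 and became 0 under the 2-fold rule and under median centring. Median centring moved the median of all probes to -0.18, and 908 genes were then lower and 6 higher, against 90 and 144 in the main setting and 203 and 226 by the scanner's log ratio. The cause of these shifts was not tested.

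The other measured members stayed within 1.5-fold of equal in the mean under every setting run. Signs changed for Abca1, Abcg1, Lrp1, Lrp8 and the brighter Lrpap1 probe under some, and Abcg1 reached -0.19 with median centring. Of the list medians under the alternatives, 24 changed beyond the distance between the arrays and 46 did not. The deposited log2 table was not run as an alternative, since its rows could not be named. Both Vldlr probes were dim, and their ratios grew with the smaller offset. No paired analysis was possible because both arrays hold the same pair of RNAs and no result comes from a test.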
